A study of Homo sapiens with 6 samples.

Results

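The RAB genes encode the largest branch of the RAS superfamily of small GTPases, and 61 of the 26255 genes listed in the RNA-seq table carry a RAB name of the form RAB, a number and at most a letter and a digit. These 61 were taken as the members by name alone, although earlier results of these data were known. RNA-seq was run on NCI-H1299 cells, an established human lung cancer cell line, with 3 libraries of cells carrying a control shRNA (shControl) and 3 libraries of cells carrying a shRNA against Ephexin1 (shEphexin1). The 6 libraries share the culture conditions and, by the labels, the same vector, pSilencer2.1-U6-neo, in which the U6 promoter drives the shRNA, whereas the study's methods name a hygromycin version and stable clones. The labels name no other agent or allele that separates the groups. The 3 shEphexin1 libraries share a name stem, so they may be repeats of 1 clone, and the p values then measure only the spread between these libraries. Ephexin1, the product of NGEF, is a guanine nucleotide exchange factor, and the comparison asks which transcripts differ when its shRNA is present.

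RAB proteins mark the membranes of the secretory and endocytic pathways. Exchange factors load them with GTP, which lets them bind effectors such as tethers and motor adaptors, and GTPase-activating proteins switch them off. Geranylgeranyl tails anchor them in the membrane, and a dissociation inhibitor carries the inactive form back through the cytosol. In epithelial and tumor cells they direct the traffic of growth factor receptors and integrins and the release of vesicles.

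The values are FPKM, which divide the fragments of a gene by transcript length and library size, so levels can be compared between genes, but the reads behind them are not given and the depth of each library is unknown. As these are bulk libraries, fewer cells with a transcript and less of it per cell cannot be told apart. Differences are log2 fold changes, shEphexin1 over shControl, of FPKM with 0.1 added, from limma fitted to the 16020 genes that reached 0.1 FPKM in 3 or more of the 6 libraries, and adjusted p values are Benjamini-Hochberg values over these genes. A gene was called when its adjusted p did not exceed 0.025 and its fold was 2 or more, the study's thresholds. NGEF itself was at 13.3, 11.7 and 16.4 FPKM with shControl, against 9.81, 8.25 and 10.5 FPKM with shEphexin1. Its groups did not overlap, and its log2 fold change was -0.53 (SE 0.163) with an adjusted p of 0.103, or 0.00284 with the replicate number as a block.

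Of the cell type markers reported here, none that passed the filter reached an adjusted p of 0.025 without the replicate block. Vimentin (VIM) was at 1979 to 2670 FPKM (adjusted p = 0.366, or 0.0187 with the replicate block). The epithelial keratin KRT18 was lower in every shEphexin1 library, at 88.9 ± 20.9 FPKM in shControl against 46.2 ± 9.32 in shEphexin1 (SD, n = 3; adjusted p = 0.0439, or 0.0002 with the replicate block). KRT8 was at 6.78 ± 1.65 against 3.13 ± 0.429 FPKM (log2 fold change -1.07, adjusted p = 0.0304, or 0.00106 with the block). With the block KRT8 was thus called. The lung lineage gene NKX2-1 and the leukocyte gene PTPRC were listed at 0 in all 6 libraries, SFTPC in 5 of 6, and SFTPB, PECAM1 and COL1A1 did not exceed 0.386 FPKM. The histone gene H3F3A, which every cell uses, was also listed at 0 in all 6 libraries, so a listed 0 in this table does not show that a gene was not expressed. Replicate 2 stood apart in both groups by GC content: over 15234 genes, the Spearman correlation between GC and a library's deviation from its group mean was -0.70 and -0.77 for replicate 2 and 0.34 to 0.68 for the other libraries. The part of these differences in the RAB values was not tested, beyond the values given with each result.

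H1299 cells expressed most of the family. Of the 61 members, 27 had a mean of at least 10 FPKM over the 6 libraries, 17 a mean of 1 to 10 FPKM, and 8 a mean under 1 FPKM but past the filter. The other 9 did not pass it: RAB17 and RAB19 were listed at 0 in all 6 libraries, and RAB20, RAB25, RAB33A, RAB37, RAB38, RAB44 and RAB6C reached at most 0.204 FPKM. The 52 members that passed did so in both groups, the lowest single value among them being 0.164 FPKM, for RAB40A, whose reads may be shared with its near-identical copy RAB40AL. RAB17 and RAB25 are known from polarized epithelia and RAB38 from melanosomes, and a listed 0 is no measure of absence here.

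**Figure D1:**
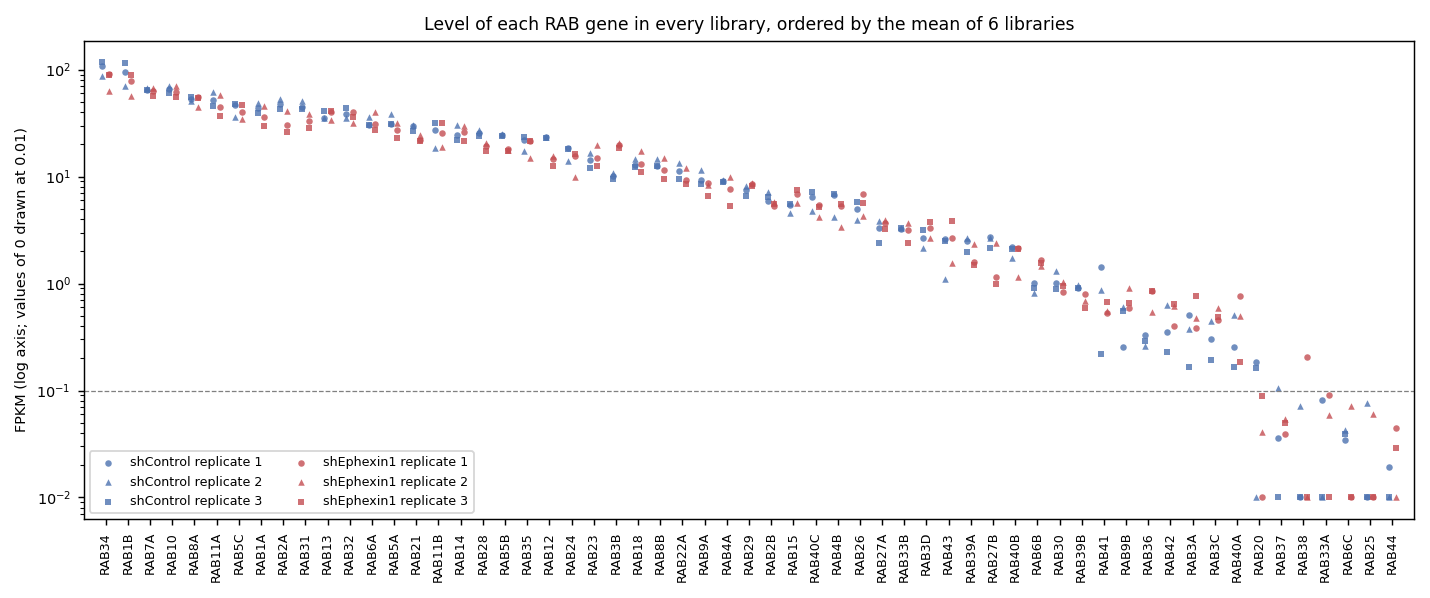
FPKM of each RAB gene (log axis) in the 3 shControl (blue) and 3 shEphexin1 (red) libraries, ordered from left to right by the mean of the 6, with values of 0 drawn at 0.01 and genes at 0 in every library left out. The dashed line marks the 0.1 FPKM used as the filter, and RAB34 and RAB1B stand at the top.

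RAB34, which acts at the Golgi and in cilium formation, had the highest level, with 108, 87.1 and 117 FPKM in shControl and 91.4, 63.7 and 89.5 in shEphexin1. RAB1B, which drives traffic from the ER to the Golgi, followed with 94.1, 70.4 and 114 against 78.8, 56.9 and 89.5 FPKM. In both genes replicate 2 was the lowest library of its group. RAB34 exceeded RAB1B in 6 of 6 libraries, though in shEphexin1 replicate 3 they were almost equal (89.48 and 89.46 FPKM). RAB1B exceeded the next gene, RAB7A, in 5 of 6. RAB7A of late endosomes and RAB10 of exocytosis to the plasma membrane had the same mean within their spread (64.2 and 64.1 FPKM), each being the higher in 3 of 6 libraries. RAB10 exceeded RAB8A in 6 of 6, whereas RAB8A and RAB11A of the recycling endosome were ordered that way in 4 of 6. These 6 genes together made up 37.3% to 41.5% of the summed RAB FPKM of a library.

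No RAB gene was called by limma, against 1.89% of the 16020 genes tested. At an adjusted p of at most 0.025 without the fold threshold, 2 of the 52 (3.85%) passed, RAB3B upward and RAB12 downward, against 3.41% of all genes. At 0.05 there were 4 (7.69%, against 7.01%), adding RAB36 with a higher and RAB5B with a lower level. At an unadjusted p of at most 0.05 there were 10, of which 3 were higher and 7 lower, or 19.2% against 23.3%. The 3 shEphexin1 libraries did not overlap the 3 shControl libraries in 13 members, 5 higher and 8 lower, or 25% against 28.3%. With 1 library left out, the count at 0.025 was 0 without shControl replicate 1 or 3 or shEphexin1 replicate 1 or 3, was 1 (RAB3B) without shControl replicate 2, and was 3 (adding RAB27B) without shEphexin1 replicate 2. By each of these counts over 6 libraries the share of RAB genes was near that of all genes.

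The differences were small. The median log2 fold change of the 52 was -0.12, within a range of -0.78 to 1.08, and that of all genes tested was -0.0093. The fitted value was below 0 in 33 members (63.5%, against 51.1% of all genes), and 46 lay under 1.5-fold. For 41 members (78.8%, against 71.3% of all genes) the whole 95% interval lay within 2-fold in either direction. The RAB genes summed to 1091 ± 13.1 FPKM in shControl and 963 ± 26.7 in shEphexin1 (SD, n = 3). The summed FPKM of all genes was 627462, 561335 and 651441 in shControl and 558737, 516079 and 587222 in shEphexin1. It was thus lower in every pair of equal number, though the groups overlapped. As a share of the summed FPKM of all genes, they held 0.174%, 0.192% and 0.169% in shControl and 0.177%, 0.187% and 0.159% in shEphexin1, and these shares overlapped.

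**Figure D2:**
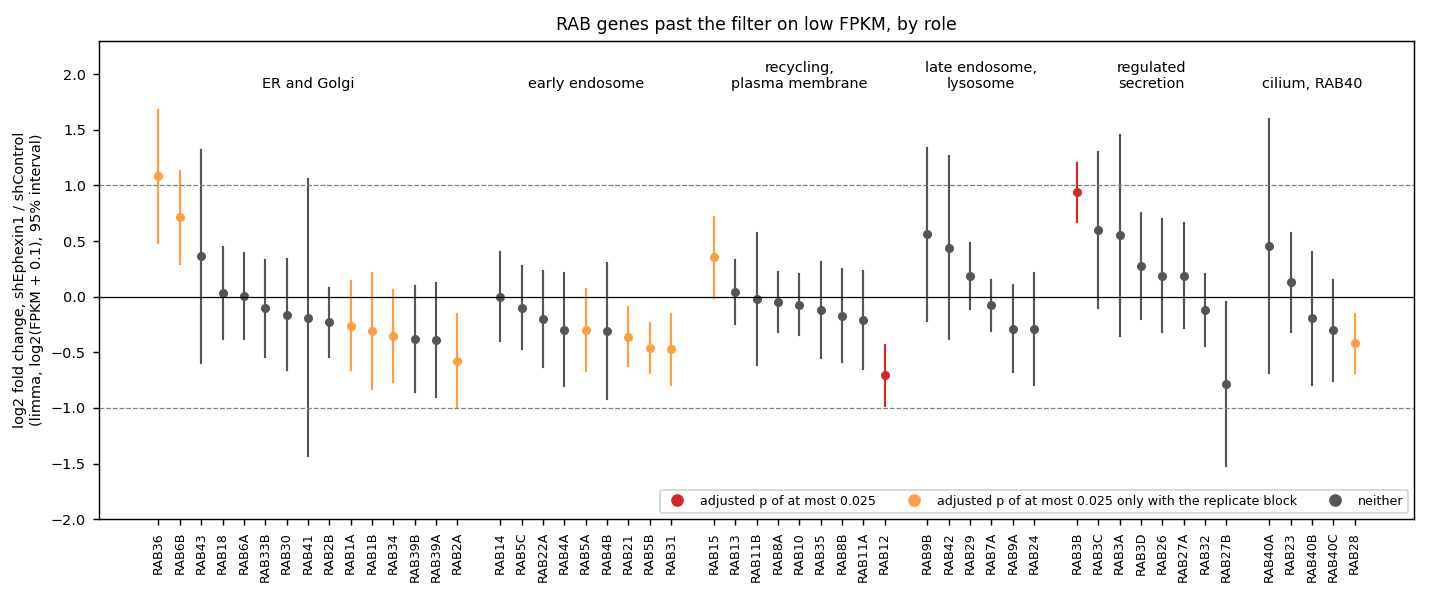
Log2 fold change of each of the 52 RAB genes past the filter (points) with its 95% interval (lines), grouped by the role of the protein. Red marks RAB3B and RAB12 with an adjusted p of at most 0.025, orange the 12 more that reach it with the replicate block, and the dashed lines a fold of 2.

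Libraries with the same replicate number deviated from their group means together, so the counts at an adjusted p of 0.025 were also taken with the replicate number as a block. With the block, 14 of the 52 members (26.9%) reached an adjusted p of 0.025, against 25.7% of all genes, 4 of them higher (RAB3B, RAB36, RAB6B, RAB15) and 10 lower (RAB12, RAB5B, RAB28, RAB31, RAB2A, RAB21, RAB34, RAB5A, RAB1A, RAB1B). One of them, RAB36, was called, against 3.47% of all genes. With replicate 2 left out of both groups, 6 passed (11.5%, against 10.6%). Correcting the libraries for GC and transcript length gave 12 of the 52 (against 25.4% of all genes), and 17 of the 52 with the block (against 29.1%). Subtraction of the median log2 fold change of each gene's chromosome arm left 1 of the 52, RAB3B (against 2.42%). With the block it left 7 of the 52, a smaller share than the 22.7% of all genes.

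Among the GTPases of regulated secretion, RAB3B rose. RAB3B is a RAB3 paralog of secretory vesicles, and its gene (ENSG00000169213.7_8) lies on the minus strand of chromosome 1p, at chr1:52373628-52456372 of GRCh37. It was at 10.2, 10.8 and 9.42 FPKM with shControl, against 19.7, 20.4 and 18.3 FPKM with shEphexin1. Every shEphexin1 library was thus well above every shControl library, and the 3 differences between libraries of the same number were 0.95, 0.92 and 0.95 on the log2 scale. The fitted log2 fold change was 0.94 (SE 0.112, 95% interval 0.68 to 1.2, adjusted p = 0.00616), just under the fold of 2. It was 0.90 after subtraction of its arm's median (adjusted p = 0.00742).

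The paralogs of RAB3B showed no difference past the test. RAB3D, found on secretory granules of exocrine cells, was at 2.69, 2.14 and 3.19 against 3.33, 2.66 and 3.76 FPKM (log2 fold change 0.28, 95% interval -0.20 to 0.76). RAB3A and RAB3C, the neuronal forms, stayed under 0.8 FPKM in every library, and the 3 values of RAB3C were higher in shEphexin1 without overlap (log2 fold change 0.60, adjusted p = 0.286). RAB3B supplied 75.1% ± 2.96 of the summed RAB3 FPKM in shControl and 81.9% ± 3.07 in shEphexin1 (SD, n = 3). The RAB3 sum was 13.5 ± 0.429 FPKM against 23.8 ± 0.407 FPKM.

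RAB27A and RAB27B, which dock secretory vesicles and the endosomes that release exosomes, had fitted differences of opposite sign, and the gap between them was not tested. RAB27B, on chromosome 18q, was at 2.74, 2.64 and 2.13 FPKM with shControl, against 1.15, 2.38 and 1.00 FPKM with shEphexin1. Its shEphexin1 replicate 2 lay within the shControl range, whereas the other 2 libraries lay below it. The log2 fold change was -0.78 (SE 0.316, adjusted p = 0.194, or 0.0422 with the block), the largest decrease fitted among the 52. With replicate 2 left out of both groups it was -1.10 (adjusted p = 0.0197) and met both thresholds. Without its arm's median, -0.44, it was -0.34 (adjusted p = 0.607, or 0.278 with the block). RAB27A was at 3.33, 3.88 and 2.41 against 3.70, 3.92 and 3.23 FPKM (log2 fold change 0.19, 95% interval -0.28 to 0.66). The share of RAB27B in the pair was 45.1%, 40.5% and 46.9% in shControl and 23.6%, 37.8% and 23.7% in shEphexin1, without overlap. Over the secretory group, 8 of the 11 members passed the filter, 6 of them fitted higher, with a median log2 fold change of 0.23.

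RAB12 was the member that decreased past the test. Its product works on recycling endosomes, sends the transferrin receptor to lysosomes and is a substrate of the kinase LRRK2. The gene (ENSG00000206418.5_8) lies on the plus strand of 18p, at chr18:8609435-8639381. Its level was 23.5, 23.5 and 22.9 FPKM with shControl, against 14.6, 15.7 and 12.6 FPKM with shEphexin1, so the control values were almost equal and all 3 shEphexin1 values far below them. The log2 fold change was -0.71 (SE 0.118, 95% interval -0.98 to -0.43, adjusted p = 0.0182). The genes of 18p of at least 1 FPKM had a median log2 fold change of -0.46, and after its subtraction RAB12 was at -0.25 (adjusted p = 0.280, or 0.0320 with the block).

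**Figure D3:**
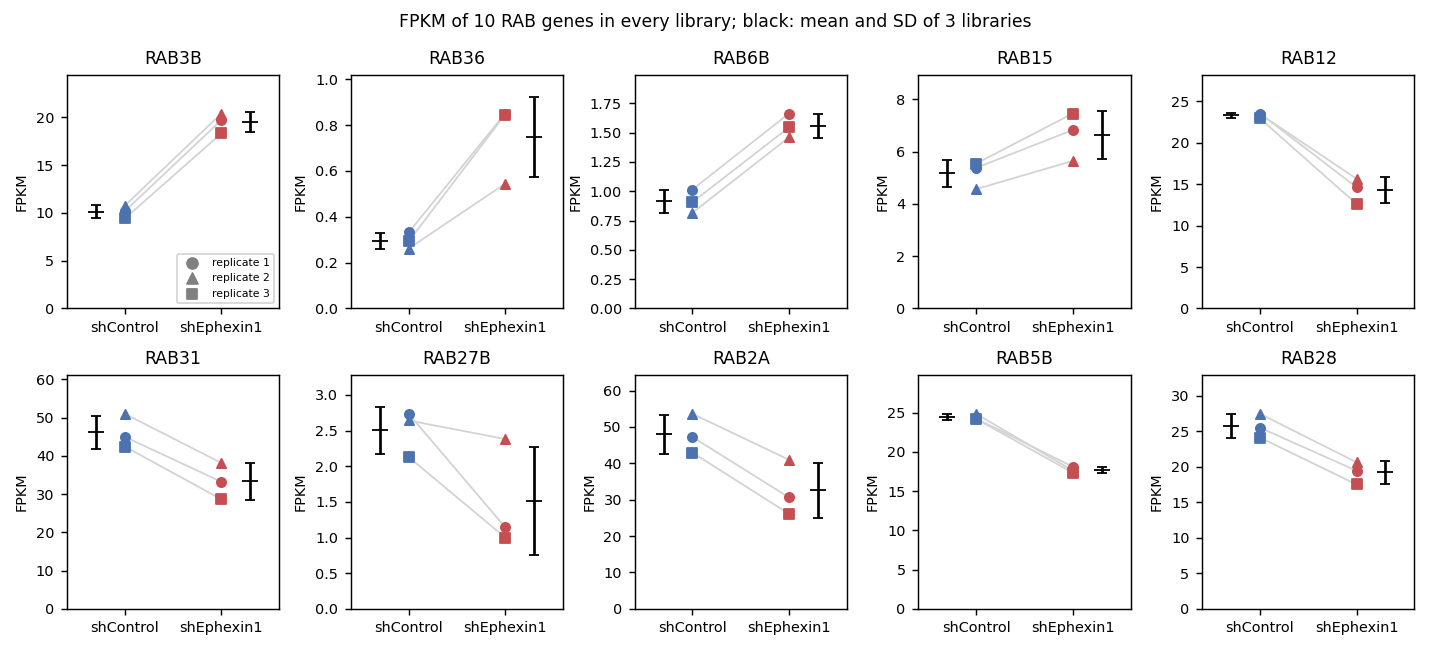
FPKM of 10 RAB genes in every library (circles, triangles and squares are replicates 1, 2 and 3, with grey lines joining equal numbers), and the mean and SD of each group in black. RAB3B, RAB36, RAB6B and RAB15 are higher and RAB12, RAB31, RAB2A, RAB5B and RAB28 lower in shEphexin1 without overlap, while replicate 2 of RAB27B lies within the shControl range.

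No other recycling or plasma membrane member passed the test. Of the 11 listed, 9 passed the filter, with a median log2 fold change of -0.073. RAB10 was at 65.9, 70.2 and 61.0 against 62.2, 69.7 and 55.9 FPKM, a log2 fold change of -0.07 with a 95% interval of -0.35 to 0.20. RAB8A, which directs vesicles to the plasma membrane and the cilium, was at 53.5, 50.4 and 55.6 against 55.6, 45.2 and 54.0 FPKM (interval -0.32 to 0.22). RAB11A was at 52.0, 61.9 and 46.0 against 44.7, 58.3 and 36.9 FPKM (interval -0.65 to 0.23). In all 3 genes the groups overlapped. RAB15, an endocytic recycling GTPase, was at 5.39, 4.57 and 5.55 against 6.83, 5.65 and 7.46 FPKM, higher without overlap (log2 fold change 0.35, adjusted p = 0.230, or 0.0208 with the block, and 0.0298 with the block after subtraction of the 14q median).

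The early endosome group had the lowest median of the 6 role groups. Of its 10 members 9 passed the filter, 8 of these were fitted lower, and the median log2 fold change was -0.30. The median of all genes with a mean of at least 1 FPKM was -0.035. With the median of each gene's arm subtracted, RAB22A (0.021), RAB14 (0.071) and RAB5C (0.11) were above 0. The others past the filter were at -0.30 to -0.018. RAB5B, one of the RAB5 paralogs that fuse early endosomes, is at chr12:56367697-56390467 on 12q. It was at 24.2, 24.8 and 24.2 FPKM with shControl, against 18.1, 17.6 and 17.3 FPKM with shEphexin1. Both groups were tight and clearly apart, with a log2 fold change of -0.46 (SE 0.0960, adjusted p = 0.0348, or 0.00146 with the block). With the 12q median of -0.17 subtracted it was -0.29 (adjusted p = 0.143, or 0.00749 with the block).

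Its paralogs were also fitted lower. RAB5A was at 31.0, 38.5 and 31.0 against 27.4, 31.8 and 22.7 FPKM (log2 fold change -0.30, adjusted p = 0.307, or 0.0146 with the block, and 0.0373 with the block after subtraction of the 3p median). RAB5C was at 46.2, 35.8 and 48.1 against 40.5, 34.6 and 46.4 FPKM (log2 fold change -0.10, 95% interval -0.47 to 0.28). The 3 genes summed to 101 ± 2.03 FPKM against 85.5 ± 1.35 FPKM, and RAB5B supplied 24.1% ± 0.830 of that sum in shControl and 20.7% ± 0.553 in shEphexin1 (SD, n = 3). The summed FPKM of all genes was also lower in shEphexin1, in every pair of equal number. Whether the 3 paralogs differ in response was not tested.

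RAB31, which shuttles cargo and the EGF receptor between the Golgi and endosomes, lies on 18p like RAB12. It was at 44.9, 51.0 and 42.4 FPKM with shControl, against 33.2, 38.1 and 28.6 FPKM with shEphexin1. The groups did not overlap, and replicate 2 was the highest in each. The log2 fold change was -0.47 (SE 0.137, adjusted p = 0.0877, or 0.00127 with the block). After subtraction of the arm's median it was -0.018 (adjusted p = 0.963, or 0.810 with the block), so RAB31 differed by about as much as the genes of its arm. RAB21, which carries integrins inward from the cell surface, was at 29.97, 30.7 and 26.6 against 22.0, 24.5 and 21.4 FPKM (log2 fold change -0.36, adjusted p = 0.107, or 0.00395 with the block). Without the 12q median it was at -0.19 (adjusted p = 0.407, or 0.0359 with the block).

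In the ER and Golgi group, 15 of 18 members passed the filter, with a median log2 fold change of -0.19, and 2 were higher and 3 lower without overlap (33.3%, against 28.3% of all genes). The higher ones were expressed at low levels. RAB36, a Golgi GTPase on 22q (ENSG00000100228.14_7, chr22:23487553-23507850), was at 0.332, 0.261 and 0.293 FPKM with shControl, against 0.851, 0.544 and 0.846 FPKM with shEphexin1. All 3 shEphexin1 values exceeded the controls, replicate 2 by the least. The log2 fold change of 1.08 (SE 0.256, adjusted p = 0.0497, or 0.0192 with the block) was the largest among the 52 as fitted. It depends on the added 0.1 FPKM: with 1 FPKM added it was 0.43, under the 0.88 of RAB3B, and with quantile normalization 0.94 against 0.99, and all alternatives lay between 0.43 and 1.29. Without the 22q median it was 1.00 (adjusted p = 0.0765, or just above 0.025 with the block).

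RAB6B, the RAB6 paralog best known from neurons, was at 1.02, 0.817 and 0.908 FPKM against 1.66, 1.46 and 1.55 FPKM. The groups were well separated, with a log2 fold change of 0.71 (SE 0.179, adjusted p = 0.0589, or 0.0198 with the block). Its widely expressed paralog RAB6A, which carries retrograde traffic through the Golgi, was at 30.5, 36.4 and 30.05 against 30.9, 40.0 and 27.1 FPKM. The 95% interval of RAB6A was -0.38 to 0.39. RAB6B made up 2.78% ± 0.530 of the RAB6 sum in shControl and 4.67% ± 1.01 in shEphexin1 (SD, n = 3). Reads shared between RAB6A and its near-identical copy RAB6C could be split either way.

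RAB2A, which acts between the ER and the Golgi, lies on 8q. It was at 47.2, 53.6 and 42.9 FPKM with shControl, against 30.6, 41.0 and 26.1 FPKM with shEphexin1. The highest shEphexin1 library was just below the lowest shControl library, and both replicates 2 were the highest of their groups. The log2 fold change was -0.58 (SE 0.179, adjusted p = 0.105, or 0.00208 with the block), and -0.33 without the 8q median of -0.24 (adjusted p = 0.352, or 0.0139 with the block). Its paralog RAB2B was at 5.88, 7.20 and 6.49 against 5.29, 5.79 and 5.51 FPKM, also lower without overlap (log2 fold change -0.23, adjusted p = 0.354).

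The 2 most abundant members were also fitted lower in every pair of equal number. RAB34 had a log2 fold change of -0.36 (95% interval -0.77 to 0.06, adjusted p = 0.280, or 0.00374 with the block). With the 17q median of -0.21 subtracted RAB34 was at -0.15 (adjusted p = 0.700, or 0.0706 with the block), and without shEphexin1 replicate 2 it was at -0.19. RAB1B had one of -0.30 (interval -0.83 to 0.22, adjusted p = 0.471, or 0.00282 with the block), which was -0.12 without shEphexin1 replicate 2, -0.14 without shControl replicate 3 and -0.49 without shControl replicate 2. RAB1A, which shares the step from ER to Golgi with RAB1B, was at 43.9, 49.0 and 39.0 against 36.1, 45.3 and 29.9 FPKM (log2 fold change -0.26, adjusted p = 0.418, or 0.0213 with the block). Summed over its 18 members, the ER and Golgi group was at 353 ± 21.6 FPKM in shControl and 290 ± 8.29 in shEphexin1, and the early endosome group at 229 ± 9.41 against 189 ± 12.1 FPKM (SD, n = 3). The summed FPKM of all genes was lower too in every pair of equal number. The sum of all RAB genes was also lower, so the shares of that RAB sum moved less. The ER and Golgi group held 32.3% of the RAB sum in shControl and 30.1% in shEphexin1. The early endosome group held 20.9% and 19.7%.

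The late endosome, lysosome and autophagosome group had 6 members past the filter, a median log2 fold change of 0.052 and no member without overlap, against 28.3% of all genes. RAB7A, which fuses late endosomes with lysosomes, was at 64.9, 67.8 and 64.9 FPKM with shControl, against 63.5, 66.7 and 57.2 FPKM with shEphexin1. Its log2 fold change of -0.08 had a 95% interval of -0.31 to 0.15. RAB29, a GTPase that recruits LRRK2, was at 7.42, 8.15 and 6.65 against 8.44, 8.63 and 8.12 FPKM (log2 fold change 0.18, adjusted p = 0.442). The last group, of ciliary members and RAB40 ubiquitin ligase subunits, had 5 members past the filter. There RAB28, a ciliary GTPase on 4p, was at 25.5, 27.5 and 24.1 against 19.4, 20.6 and 17.5 FPKM, lower without overlap (log2 fold change -0.42, adjusted p = 0.0725, or 0.00189 with the block), and at -0.22 without the 4p median (adjusted p = 0.334, or 0.0182 with the block).

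Replicate 2 departed from the other replicates along GC content. Among the 44 members with a mean of at least 1 FPKM, the 17 with a transcript of at least 50% GC were lower in replicate 2 than in the mean of replicates 1 and 3, in 17 of 17 in both groups. Of the 27 with less GC, 27 were higher in replicate 2 of shControl and 26 in replicate 2 of shEphexin1. The medians of these differences were -0.38 and 0.22 (log2) in shControl and -0.51 and 0.32 in shEphexin1. Across these 44 genes, which share the same libraries, the Pearson r between GC and the difference was -0.897 in shControl and -0.903 in shEphexin1. A gene such as RAB1B, with 60.4% GC, had an SD of 21.9 FPKM in shControl, at a mean of 92.9 FPKM. RAB12 and RAB5B, with 45.4% and 46.1%, had SDs of 0.331 and 0.364 FPKM in shControl, at lower means of 23.3 and 24.4 FPKM. In shEphexin1 their SDs were 1.55 and 0.385 FPKM, at means of 14.3 and 17.7 FPKM. RAB29, with 45.7% GC, had an SD of 0.754 FPKM in shControl, at a mean of 7.41 FPKM.

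**Figure D4:**
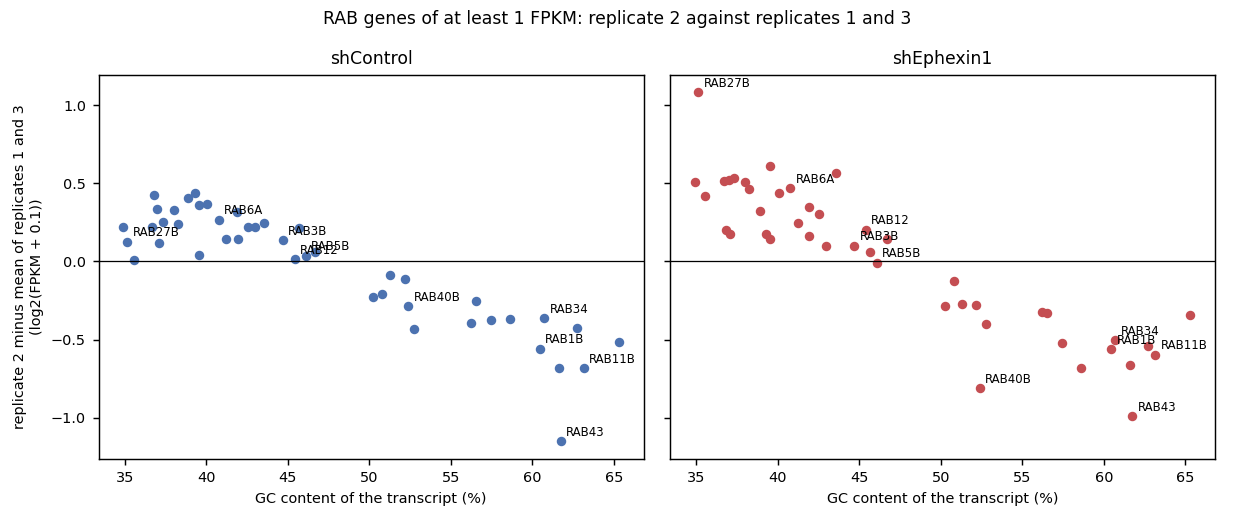
Difference between replicate 2 and the mean of replicates 1 and 3 (log2 of FPKM with 0.1 added) against the GC content of the transcript, for the 44 RAB genes with a mean of at least 1 FPKM in shControl (left) and shEphexin1 (right). In both groups the points fall from above 0 at low GC to below 0 at high GC.

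**Figure D5:**
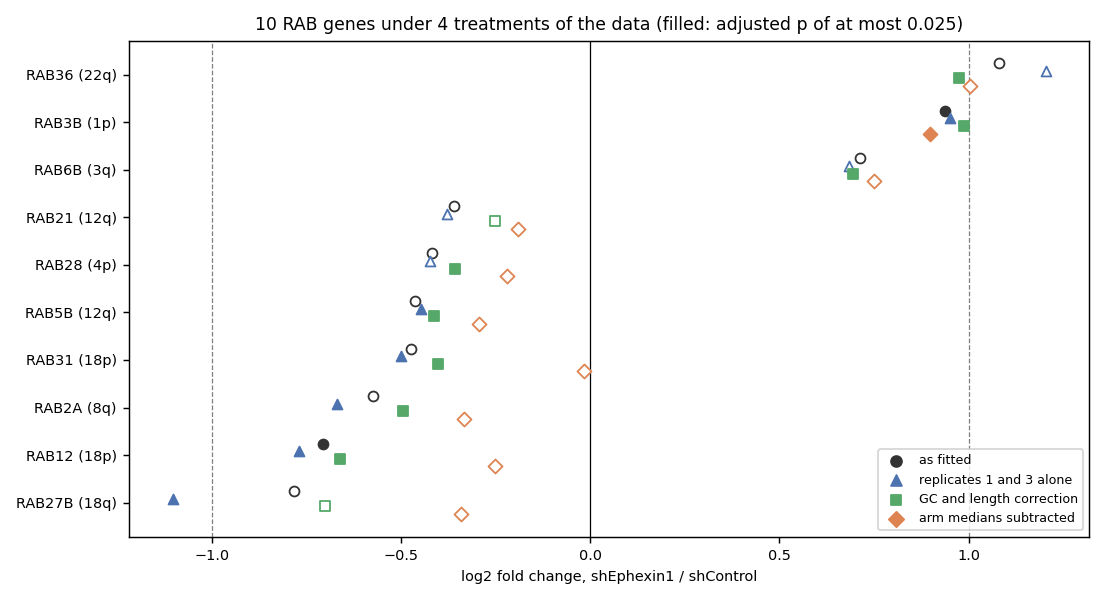
Log2 fold change of 10 RAB genes as fitted (circles), in replicates 1 and 3 alone (triangles), after correction for GC and length (squares) and after subtraction of the chromosome arm's median (diamonds), filled where the adjusted p is at most 0.025. RAB3B is filled under all 4, and RAB31 moves to -0.018 when its arm's median is subtracted.

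The proteins that operate the RAB cycle were taken from 6 lists of 198 genes in all, of which 188 passed the filter. None was called by limma, and 38 had an unadjusted p of at most 0.05, 8 higher and 30 lower (20.2%, against 23.3% of all genes, of which 1681 were higher and 2056 lower). At an adjusted p of at most 0.025 there was 1 gene, CCZ1, a subunit of the RAB7A exchange factor, with a log2 fold change of -0.91 (adjusted p = 0.0200), or of -0.66 without the median of its arm, 7p (adjusted p = 0.0618). CCZ1 has a near-identical copy, CCZ1B, so its level is uncertain. At 0.05 there were 10 (5.32%, against the 7.01% of all genes), 4 higher and 6 lower, and the groups did not overlap in 48 (25.5%, against 28.3%). The median log2 fold change of the 188 was -0.0087. With the replicate block, 53 reached 0.025 (28.2%, against 25.7%) and 2 were called, the RAB phosphatase PPM1H and the GTPase-activating protein TBC1D16. TBC1D16 was at 1.22, 0.856 and 1.47 FPKM with shControl, against 0.763, 0.322 and 0.490 FPKM with shEphexin1. Its log2 fold change was -1.07 (adjusted p = 0.0998, or 0.0179 with the block), and -0.86 without the 17q median (adjusted p = 0.190). With arm medians subtracted and the block, no pathway gene was called.

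By list, the groups did not overlap in 12 of the 48 exchange factors (25%, median log2 fold change -0.0087), 13 of the 38 GTPase-activating proteins (34.2%, median 0.023) and 16 of the 63 effectors (25.4%, median -0.047), against 28.3% of all genes. They did not overlap in 4 of the 22 RAB-like GTPases (18.2%, median -0.082), 1 of the 11 prenylation and recycling factors (9.09%, median 0.025) and 2 of the 6 LRRK kinases and RAB phosphatases (33.3%, median -0.0072). PPM1H, which removes the LRRK phosphate from RAB proteins, was at 1.44, 1.2 and 1.3 FPKM with shControl, against 0.686, 0.521 and 0.452 FPKM with shEphexin1. Its log2 fold change was -1.12 (adjusted p = 0.0288, or 0.00777 with the block), and -0.96 without the 12q median (adjusted p = 0.0522). TBC1D2, a GTPase-activating protein for RAB7A, was at 17.5, 13.1 and 18.9 against 33.7, 23.6 and 36.4 FPKM (log2 fold change 0.91, adjusted p = 0.0430, or 0.000236 with the block), without overlap. RABGEF1, the exchange factor for RAB5 proteins, was at 30.8, 26.3 and 26.4 against 38.2, 40.9 and 37.7 FPKM (log2 fold change 0.49, adjusted p = 0.0419, or 0.00364 with the block), and at 0.19 without the median of its arm, 7q (adjusted p = 0.391).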

How the data were processed

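RNA from 3 shControl and 3 shEphexin1 libraries of H1299 cells was prepared as stranded total RNA. Per the labels and the study's methods, the authors mapped reads to GRCh37/hg19 with TopHat2 2.0.13 and Bowtie and computed the deposited FPKM with Cufflinks 2.2.1 (Cuffdiff, geometric scaling), after bcl2fastq 2.20. The annotation and filters are not given in the sources used here. The table holds no counts, so no counting interval is given. All value columns were mapped to libraries by name.

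Genes were tested with limma 3.58.1 (lmFit, eBayes with trend, R 4.3.3) on log2(FPKM + 0.1), which understates changes of genes near 0.1 FPKM. The filter left out 10235 genes. The single comparison was shEphexin1 against shControl, and the adjustment ran over all genes tested. In an exact two-sided permutation test of 3 against 3 the smallest p is 0.1, which each of the 13 members without overlap had. Positions, arms, GC and transcript length came from GENCODE on GRCh37. The fit was also run on simulated data with independent noise in each gene and library. These lacked the shared replicate and GC differences seen here, so that run says nothing about them. Python 3.11.15 and matplotlib 3.10.9 were used for tables and plots.

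Deviations from the group means of equally numbered libraries correlated at 0.234, 0.639 and 0.513 over 12638 genes, so the numbers were taken to pair the samples. Those of unequal numbers correlated at -0.569 to 0.149. The highest of these, for shControl replicate 3 with shEphexin1 replicate 1, was close to the 0.234 of replicate 1. This pairing comes from the data, not from the labels. The alternatives were other pseudocounts (1 and 0.01 FPKM), filters (none and 1 FPKM), scalings and thresholds, eBayes without trend, the replicate block, GC and length correction, subtraction of arm medians, replicates 1 and 3 alone and each library left out in turn.

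The members, role groups and 6 pathway lists were chosen with earlier results of these data known. Named with every library's value were NGEF, members with an adjusted p of at most 0.05, the 3 largest increases and decreases, the 6 highest means and members on 12p, 18p, 18q or 7q (RAB12, RAB31, RAB27B and RAB19). RAB3A, RAB3C, RAB3D, RAB5A, RAB5C, RAB6A, RAB27A, RAB2B, RAB1A, RAB15, RAB21, RAB28, RAB29, RAB40A and the pathway genes were named after their values were seen. 1 of the cell type markers is not reported here.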

Additional observations from a re-analysis of the deposited data

How the results depend on the processing

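The median log2 fold change of the RAB genes kept its sign under all alternatives, between -0.165 and -0.059 (-0.135 to -0.089 with 1 library left out). The median of all genes tested moved too. It was -0.034 with the filter of 1 FPKM, which gave the RAB median of -0.165, and 0.022 with arm medians subtracted, which gave -0.059. By shEphexin1 library, the RAB median difference from the shControl mean was -0.068, -0.043 and -0.183, largest in replicate 3. The count of called RAB genes, 0, was 1 with the replicate block, 1 in replicates 1 and 3 alone, 1 at an adjusted p of at most 0.05 with the same fold, and 0 to 1 with 1 library left out. The count at an adjusted p of at most 0.025, 2, was 1 with quantile normalization, 1 with eBayes without trend, 14 with the replicate block, 6 in replicates 1 and 3 alone, 12 with GC and length correction, 17 with that correction and the block, 1 with arm medians subtracted, 7 with arm medians subtracted and the block, and 0 to 3 with 1 library left out. The 2 combinations with the block were chosen after seeing the data. The count of called pathway genes, 0, was 1 with quantile normalization, 2 with eBayes without trend, 2 with the replicate block, 3 with GC and length correction, 2 with that correction and the block, 2 at 0.05, and 0 to 1 with 1 library left out. The block changed no other call of a named gene than those given with it. Of 284 recomputed values of single named genes, 278 kept their direction. The 6 that did not were near 0: with quantile normalization RAB10 was at 0.022, RAB7A at 0.019 and RAB8A at 0.027, RAB8A was at 0.0069 in replicates 1 and 3 alone, and with 1 library left out RAB10 ranged from -0.15 to 0.0057 and RAB8A from -0.11 to 0.044. RAB3B ranged from 0.88 to 0.99, with a highest adjusted p of 0.0517, and RAB12 from -0.77 to -0.25, with a highest adjusted p of 0.280. The cause was not tested. Other pseudocounts, filters and median centring left each count as it was. Without counts, depth sets no limit that can be stated, and the low levels of members such as RAB36 carry an unknown counting error.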
